A study of Mus musculus with 6 samples.

Results

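The replication-dependent histone genes were followed in total RNA of mouse skin. They were chosen by symbol alone, as the table rows whose names belong to the clustered H1, H2A, H2B, H3 and H4 series (H1f1 to H1f5, and the H2ac, H2bc, H3c and H4c names). The rule found 62 of the 27179 genes in the count table: 5 H1, 17 H2A, 16 H2B, 12 H3 and 12 H4 genes. Of these, 52 lie on chromosome 13 and 10 on chromosome 3 (mm10). The naming rule itself uses no measured value.

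The mice were BALB/c females, 6 to 8 weeks old, in 4 conditions. There was 1 library from control mice and 1 from mice given bleomycin, a DNA-damaging drug used in mice to model the skin fibrosis of scleroderma. A further library came from mice given bleomycin and EHP-101, an oral form of a cannabidiol-derived aminoquinone, and 3 from mice given bleomycin and ajulemic acid (AJA), a synthetic cannabinoid. Doses and times were not among the labels, which also do not say whether a library is 1 animal or a pool, or whether the AJA libraries are separate animals. P-values therefore measure only the spread between the AJA samples, which may be technical, and the single libraries were assumed to vary as much as those.

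Core histones H2A, H2B, H3 and H4 form the protein spool of the nucleosome, and linker histone H1 binds the DNA where it enters and leaves. The clustered genes are transcribed mainly in S phase, when newly copied DNA needs new nucleosomes. Their messages are short and mostly without introns, and end after a stem-loop in place of a poly(A) tail. The stem-loop is bound by SLBP, the protein that guides end formation, translation and decay. Skin holds dividing cells chiefly in the basal epidermis and in the matrix of growing hair follicles. The libraries were made from total RNA depleted of ribosomal RNA, a method that does not select for poly(A).

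The stem-loop marks a message as belonging to this class, and 42 of the 62 members held it in a GENCODE M21 transcript. Across 55450 annotated genes, 55 held it (0.0992%). The sites of members that the results turn on are shown 5′ to 3′ with the 16 stem-loop bases in capitals.
H1f2: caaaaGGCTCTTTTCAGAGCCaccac
H1f4: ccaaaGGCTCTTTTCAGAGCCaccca
H2ac4: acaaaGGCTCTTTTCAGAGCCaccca
H2ac11: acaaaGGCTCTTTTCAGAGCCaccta
H2bc3: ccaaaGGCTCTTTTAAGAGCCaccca
H3c4: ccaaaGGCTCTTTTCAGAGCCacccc
H4c4: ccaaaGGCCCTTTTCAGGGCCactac
H4c11: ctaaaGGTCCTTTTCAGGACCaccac
H4c14: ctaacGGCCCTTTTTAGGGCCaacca
H3c14: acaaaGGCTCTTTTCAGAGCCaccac
The 16 bases were identical in 24 members, with the form shown for H1f2, and 6 members shared the form shown for H4c4. A further 5 shared that of H2bc3, 2 each shared those of H4c11 and H4c14, and 3 forms occurred once. In 23 of the 42 members the annotated transcript ran on for at most 100 bases past the stem-loop, and in 19 it ran further, up to 4884 bases. No match was found in the transcripts of H2bc18, H1f5 or H2bc21. Only annotated transcripts were searched, so a stem-loop past an annotated end would be missed.

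The histone promoters were read from RefSeq (GRCm38.p6), which held 57 of the 62. The 250 bases before each start were searched for TATAAA on the gene's strand, and on both strands for CCAAT, the octamer ATTTGCAT and the linker histone box AAACACA. The 120 bases before the start are shown for abundant H2B, H4 and H1 genes, for a divergent H2A and H2B pair, and for H3c14, whose level went against the other members. Capitals mark any of these motifs, on either strand for the last 3.
H2bc18, chr3:96269580-96269699, plus strand: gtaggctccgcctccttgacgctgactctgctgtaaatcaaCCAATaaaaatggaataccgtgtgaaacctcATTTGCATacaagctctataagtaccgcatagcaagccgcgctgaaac
H4c4, chr13:23581448-23581567, plus strand: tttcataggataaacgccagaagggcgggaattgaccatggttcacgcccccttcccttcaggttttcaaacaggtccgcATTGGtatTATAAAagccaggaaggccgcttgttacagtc
H1f5, chr13:21780626-21780745, minus strand: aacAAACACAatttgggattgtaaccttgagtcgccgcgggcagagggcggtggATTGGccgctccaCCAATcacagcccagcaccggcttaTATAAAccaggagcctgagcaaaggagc
H2ac12, chr13:22035644-22035763, minus strand: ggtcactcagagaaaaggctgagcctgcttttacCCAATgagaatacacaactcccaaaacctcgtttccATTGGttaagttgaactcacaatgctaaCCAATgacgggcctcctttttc
H2bc12, chr13:22035701-22035820, plus strand: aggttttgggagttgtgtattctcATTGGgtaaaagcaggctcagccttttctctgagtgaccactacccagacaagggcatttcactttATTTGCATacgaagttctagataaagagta
H3c14, chr3:96246565-96246684, plus strand: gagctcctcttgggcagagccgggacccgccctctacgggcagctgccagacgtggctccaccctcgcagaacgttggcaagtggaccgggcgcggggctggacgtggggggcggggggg
CCAAT occurred in 47 of 57 histone windows (82.5%) and in 33.8% of all 32851 RefSeq windows. It was in 17 of 17 H2A, 14 of 14 H2B and 5 of 5 H1 windows, in 8 of 10 H3 windows, and in 3 of 11 H4 windows. TATAAA occurred in 23 of 57 (40.4%, against 7.59% of all windows). The octamer occurred in 12 of 57 (21.1%, against 1.6%), of which 6 were H2A and 6 were H2B genes. Windows of divergent pairs can overlap, so the same site can count for both genes, as it did for H2ac12 and H2bc12. AAACACA occurred in 8 of 57 (14%, against 6.25%) and in 4 of the 5 H1 windows. None of the 4 motifs was found in the 250 bases before H3c14. The same held for H3c15, H4c2, H4c8 and H4c11, which were lower in bleomycin than in control. These are matches of letters in the windows searched and were not tested as binding sites.

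Totals per library ran from 14291592 to 19837682 counts, of which mitochondrial ribosomal RNA took 17.3 to 26.5%. Keratinocyte and fibroblast markers were present in every library, with summed levels over 6 basal keratinocyte genes of 4912 to 8044 CPM (counts scaled to library size with TMM factors). A list of 6 hepatocyte genes summed to 805, 559 and 521 CPM in the control, bleomycin and EHP-101 libraries and to 2.04 to 14 CPM in the AJA libraries. Fgb of that list was at 0 in AJA replicates 1 and 3. The part of these differences in the histone values was not tested. In the whole table of 17377 tested genes, 0 passed an adjusted p under 0.05 in 5 of the 6 comparisons by edgeR's quasi-likelihood test with Benjamini-Hochberg adjustment, and 6 were lower in AJA than in control.

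Histone messages made up a small part of each library. They held 18249 counts in control (0.116% of the total), 7352 in bleomycin (0.0473%) and 12651 in EHP-101 (0.0817%). The AJA libraries held 13414, 8769 and 22237 counts (0.0939, 0.0470 and 0.112%). In CPM the 62 members summed to 1199 in control (95% exact Poisson interval 1182 to 1217, counting error only), to 472 in bleomycin (461 to 483) and to 772 in EHP-101 (759 to 786). The AJA libraries gave 915, 503 and 1109 CPM, with a mean of 842 ± 310 (SD, n = 3). Control was thus 2.54 times bleomycin, and EHP-101 1.64 times. The AJA libraries ran from 1.07 to 2.35 times bleomycin, so that replicate 2 lay close to the bleomycin library and replicate 3 close to control. The highest and lowest AJA libraries differed 2.21-fold, nearly the difference between control and bleomycin. In whole skin, fewer dividing cells and less histone RNA per cell cannot be told apart.

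**Figure D1:**
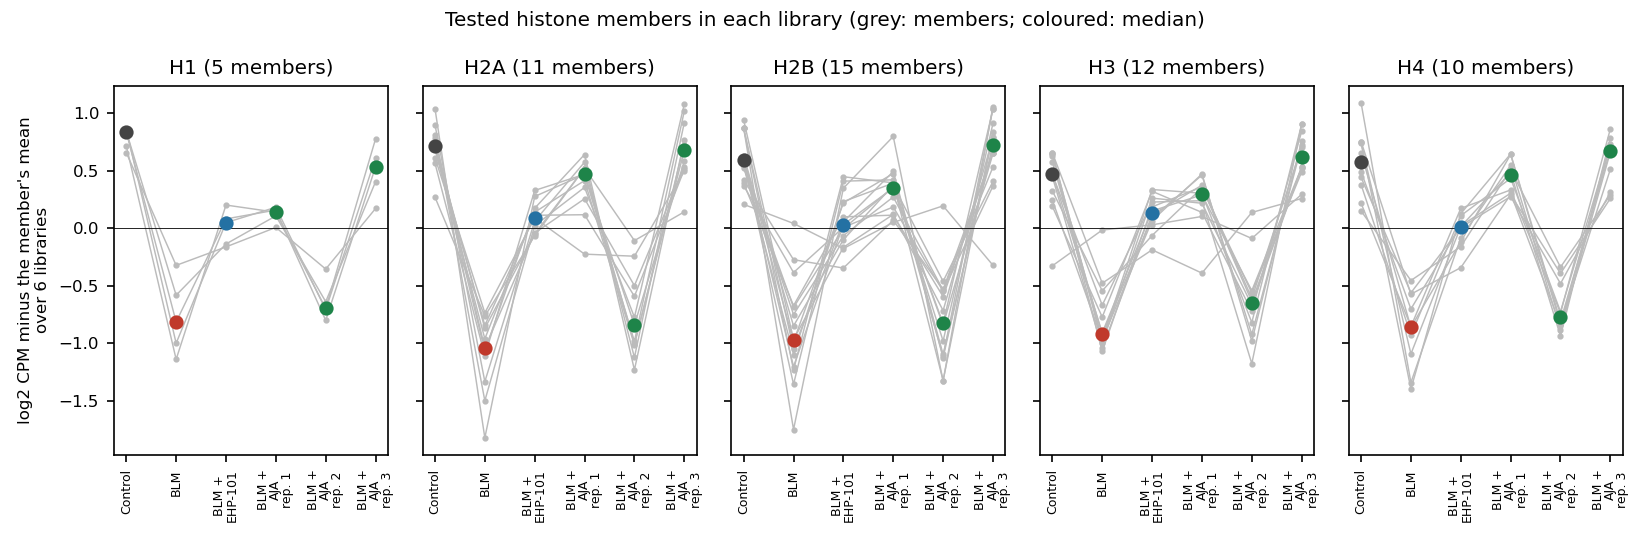
Each grey line is 1 tested histone gene, plotted as its log2 CPM in the 6 libraries minus its own mean over them, and coloured points are the median of each family in a library. All 5 families were low in bleomycin and in AJA replicate 2 and high in control and AJA replicate 3.

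The 10 most abundant members by mean CPM held 61.9% of the histone counts. Linker histones took the largest share, with 43.1% of histone counts in control and 42.4% in bleomycin. The H1 share was 38.2% with EHP-101 and 35.5, 40.8 and 36.7% in AJA, below control in each of these libraries. In control and bleomycin the other families had 7.98 and 6.07% for H2A, 21.7 and 22.7% for H2B, 9.84 and 10.7% for H3, and 17.3 and 18.2% for H4. H1 coding sequences, of 636 to 669 bases, are longer than those of core histones, of 309 to 408 bases. They take more reads for the same number of messages. Annotated transcripts of H1f2, H1f3 and H1f4 run on for 840, 4884 and 1153 bases past the stem-loop, where the message ends. Part of a long model may thus lie past that end, which makes levels per length uncertain. Of the 62 models, 45 have lengths that are multiples of 3 bases, as a bare coding sequence has, and 58 have a single exon.

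How much of a member can be counted may depend on its copies, which was not tested. With reads of 50 bases, the share of 50-base windows of the coding sequence found in no other gene had a median of 24.0% over the members. The medians were 78.0% for H1, 28.3% for H4, 20.4% for H2B, 14.6% for H3 and 13.5% for H2A. No window was unique in 11 members, of which 7 had too few counts to be tested, while of the 51 others 2 were untested. The median level per length was 0.204 CPM per kb in the first set and 19.9 in the second. Single members departed from this: H2ac7, with no unique window, was at 10.1 CPM per kb. H2ac1, with 97.6% of its windows unique, was at 0.414. These 2 were named after their values were seen. Across the 62 members Spearman's rho between the unique share and the level was 0.61, a description over genes that share families and libraries. How reads with several matches were treated is not stated in the sources used here. Levels of single core histone genes are therefore uncertain, and the H1 genes, along with H2bc21, are among the best separated.

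**Figure D2:**
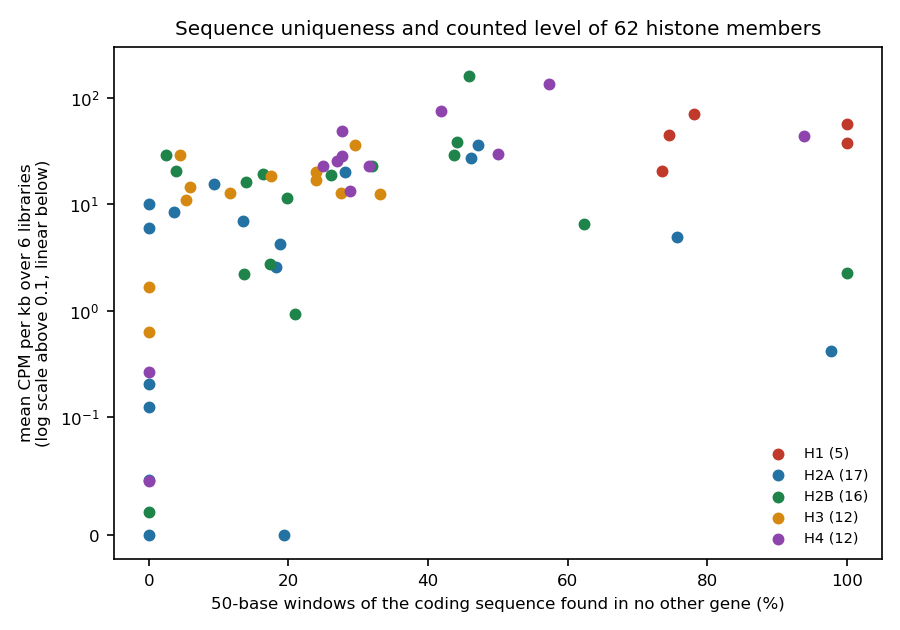
Each point is 1 of the 62 histone genes: the horizontal axis is the share of its 50-base coding windows found in no other gene (%), and the vertical axis its mean level over 6 libraries (CPM per kb, log scale above 0.1). Points at 0% lie between 0 and about 10 CPM per kb, and H1 genes sit to the right.

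Of the 62 members, 60 had a count in some library and 53 passed the filter on low counts (minimum count 10). H2ac10 and H2ac19 had 0 counts in every library. The other 7 untested members, H2ac1, H2ac18, H2ac23, H2ac24, H2bc23, H4c17 and H4c18, had at most 0.329 CPM in any library. H2ac1 and its neighbour H2bc1 encode the testis forms of H2A and H2B. Of the tested members, H2bc15, H2bc22 and H3c15 had fewer than 10 counts in at least 1 library.

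The first comparison asked how bleomycin-exposed skin differed from control skin. Of the 53 tested members, 52 were lower in the bleomycin library and 45 were lower by 2-fold or more, where 50.5% and 7.1% of all tested genes were. The median log2 fold change was -1.52, against -0.01 over all genes. None passed an adjusted p under 0.05 by edgeR's quasi-likelihood test with Benjamini-Hochberg adjustment (lowest 0.695), as 0% of all genes did. DESeq2 and limma also called 0 members, where over all genes DESeq2 called 128 higher and 37 lower and limma 0. An unadjusted p under 0.05 was reached by 11 members, all lower, with 2.1% of all genes lower at that level. The bleomycin library was the lowest of the 6 for 36 members (16.8% of all genes), and it and AJA replicate 2 were the lowest pair for 49 (18.1%).

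H1f2 (gene 50708, chr13:23738807-23740367), which encodes the linker histone H1.2, was the most abundant linker histone gene by length, at 70.9 CPM per kb on average. It stood at 169 CPM in control, 85.9 in bleomycin, 96.0 with EHP-101 and 108, 84.0 and 121 in AJA. Bleomycin and AJA replicate 2 were level and low, and control was above every other library. The log2 fold change in bleomycin was -0.98 ± 0.30 (SE), with an adjusted p of 0.696.

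H1f5 (gene 56702, chr13:21779883-21780554) and H1f1 (gene 80838, chr13:23763668-23764414) encode H1.5 and H1.1, and all of their 50-base windows were unique. H1f5 was at 56.6 CPM in control, 15.7 in bleomycin, 39.7 with EHP-101 and 38.0, 21.3 and 59.1 in AJA. H1f1 was at 46.6, 12.8 and 26.5 CPM in the same single libraries and at 29.1, 15.7 and 39.2 in AJA. The log2 fold changes in bleomycin, -1.85 ± 0.72 for H1f5 and -1.86 ± 0.65 for H1f1, were the lowest within H1, with adjusted p of 0.740 and 0.728.

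H1f4 (gene 50709, chr13:23620628-23622558), which encodes H1.4, was at 144 CPM in control, 53.6 in bleomycin, 73.0 with EHP-101 and 86.5, 51.6 and 106 in AJA. Its log2 fold change in bleomycin was -1.42 ± 0.52 (adjusted p 0.729). Its model shares 209 bases with that of H2bc6 on the same strand, so part of either count is uncertain. H1f3, which encodes H1.3, had a log2 fold change of -1.65, the median of the family.

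Every tested H2A gene was at least 2-fold lower in bleomycin, with log2 fold changes from -2.85 to -1.03 and a median of -1.67 over 11. H2ac15 (gene 319169, chr13:21753435-21753827), the highest by length at 36.3 CPM per kb, had 20.6 CPM in control, 6.55 in bleomycin, 14 with EHP-101 and 17.0, 6.31 and 21.1 in AJA. H2ac4 (gene 319172, chr13:23751088-23751593) had 15.0, 3.02 and 8.66 CPM in the single libraries and 10.9, 4.99 and 18.0 in AJA. In both genes bleomycin and AJA replicate 2 were the lowest pair of libraries.

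H2ac11 (gene 319167, chr13:22042477-22042949) had the lowest fold change of all members, at -2.85 ± 1.08 on the log2 scale. It rested on low levels: 4.66 CPM in control, 0.642 in bleomycin, 2.75 with EHP-101 and 3.14, 1.15 and 4.59 in AJA. None of the coding windows of H2ac11 was unique, which leaves its counts uncertain. Summed over 17 genes, H2A gave 95.7 CPM in control and 28.6 in bleomycin, a ratio of 3.34, the widest of the families. H1 gave 2.58, H2B 2.43, H4 2.42 and H3 2.34. None of these ratios has a replicate check, and the differences between them were not tested.

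H2bc18 (gene 319189, chr3:96269700-96270192) was the most abundant member by length, with 160 CPM per kb on average. It encodes an H2B and stood at 109 CPM in control, 44.3 in bleomycin, 71.3 with EHP-101 and 90.1, 51.4 and 108 in AJA. Control and AJA replicate 3 were nearly equal. The bleomycin value differed from control by -1.30 ± 0.53 on the log2 scale (adjusted p 0.749). H2bc3 (gene 319178, chr13:23746734-23747202) had 24.1, 10.4 and 16.7 CPM in the single libraries and 21.4, 9.34 and 26.3 in AJA, with AJA replicate 2 below bleomycin.

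H2bc21 (gene 319190, chr3:96221121-96223738) stood apart among H2B genes. It had 6.77 CPM in control, 6.03 in bleomycin, 5.19 with EHP-101 and 6.07, 6.71 and 4.69 in AJA. No library was far from the rest, and AJA replicate 3 was the lowest rather than the highest. The log2 fold change in bleomycin was -0.17 ± 0.39. Its model of 2618 bases is long for a core histone, and all of its coding windows were unique. H2bc6 and H2ac6 also have long models, of 2510 and 2493 bases, and had log2 fold changes of -1.47 and -1.59. H2bc1 (gene 319177, chr13:23933773-23934156), the testis H2B gene, was low, at 3.22, 1.99 and 1.89 CPM in the single libraries and 2.52, 1.66 and 3.79 in AJA.

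H3c6 (gene 319151, chr13:23561955-23562365) was the highest H3 gene by length, at 36 CPM per kb. It had 17.8 CPM in control, 9.75 in bleomycin, 13.6 with EHP-101 and 18.1, 9.63 and 20 in AJA. H3c4 (gene 319149, chr13:23575802-23576212) had 10.9, 3.47 and 8.30 CPM in the single libraries and 8.05, 4.36 and 9.98 in AJA. H3c13 (gene 319154, chr3:96268694-96269104) had 8.54, 2.63 and 6.29 CPM and 7.09, 3.55 and 7.98 in AJA. These last had unadjusted p under 0.05, at log2 fold changes of -1.65 ± 0.64 and -1.70 ± 0.65.

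H3c14 (gene 15077, chr3:96246685-96248509) was the 1 member with a higher value in bleomycin than in control. It had 2.43 CPM in control, 3.02 in bleomycin, 3.11 with EHP-101 and 3.27, 2.87 and 3.74 in AJA. Control was the lowest library, and the log2 fold change of 0.31 ± 0.42 had an adjusted p of 0.874. H3c14 holds the stem-loop, its model is 1825 bases long, and none of its coding windows was unique, which leaves its counts uncertain.

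H4c4 (gene 319156, chr13:23581602-23581913) and H4c3 (gene 319155, chr13:23698138-23698449) were the highest H4 genes by length, at 134 and 74.6 CPM per kb. H4c4 had 54.8 CPM in control, 27.3 in bleomycin, 40.5 with EHP-101 and 48.8, 28.9 and 50.1 in AJA. H4c3 had 37.2 CPM in control, 14.8 in bleomycin, 17.4 with EHP-101 and 27.0, 16.8 and 26.4 in AJA. Control exceeded every other library in both. H4c3 had the smallest unadjusted p of all members (0.0236), at a log2 fold change of -1.33 ± 0.41 and an adjusted p of 0.695.

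H4c11 (gene 319159, chr13:21735096-21735407) and H4c2 (gene 326620, chr13:23757021-23757332) differed more. H4c11 had 12.8 CPM in control, 2.37 in bleomycin, 5.67 with EHP-101 and 8.80, 3.27 and 9.53 in AJA. H4c2 had 11.6, 2.63 and 7.57 CPM and 10.8, 3.96 and 11.1 in AJA. Their log2 fold changes in bleomycin were -2.43 ± 0.84 and -2.14 ± 0.82. H4c8 (gene 69386, chr13:23531044-23531522) had 33.8, 11.8 and 19.8 CPM and 33.5, 12.0 and 30.6 in AJA, a log2 fold change of -1.52 ± 0.75.

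H4c14 (gene 97122, chr3:96262970-96263317) differed less, with 16.5 CPM in control, 10.8 in bleomycin, 13.3 with EHP-101 and 21.1, 11.8 and 18.2 in AJA. Its log2 fold change in bleomycin was -0.60 ± 0.46. The chromosome 3 members together summed to 162 CPM in control and 74.4 in bleomycin, and those on chromosome 13 to 1037 and 397 CPM.

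Among the 11 members with an unadjusted p under 0.05 were H4c3, H1f2, H4c11, H1f1, H1f4, H2ac11, H3c13 and H3c4, described above. The other 3, named after their values were seen, were H2ac22, H2ac20 and H2bc6, with log2 fold changes of -1.82, -1.35 and -1.47. By family, median log2 fold changes were -1.65 for H1, -1.67 for H2A, -1.60 for H2B, -1.30 for H3 and -1.32 for H4. The 39 tested members with models of at most 600 bases had a median of -1.62, and the 14 longer ones -1.40.

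Many H2A and H2B genes are transcribed from a shared stretch in opposite directions. There were 11 such pairs with starts close together, and 9 had both genes tested, with gaps of 179 to 334 bases between the models. The genes of a pair differed in bleomycin against control by a median of 0.47 on the log2 scale, in either direction. H2ac7 and H2bc7 were at -1.67 and -1.63, and H2ac12 and H2bc12, whose promoters are printed above, at -2.22 and -1.95. H2ac20 and H2bc21 were the most unequal, at -1.35 and -0.17. The H2B gene had the higher level per length in 6 of the 9 pairs. This count is uncertain, because models within a pair can differ in length. H2ac6 and H2bc4 have 2493 and 728 bases, and H2ac20 and H2bc21 have 390 and 2618. These pairs were named after their values were seen.

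The next comparisons asked whether the histone genes of bleomycin-exposed skin differed when EHP-101 or ajulemic acid was given too. Both share the single bleomycin library, so their values are set side by side and are not independent. With EHP-101, 51 of 53 tested members were higher and 28 were higher by 2-fold or more, where 50% and 5.26% of all tested genes were. The median log2 fold change was 1.03, against 0.00 over all genes. With AJA, 52 were higher and 32 were higher by 2-fold or more (52.8% and 4.35% of all genes), with a median of 1.13 against 0.02. Without AJA replicate 3, the members at 2-fold or more numbered 12.

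No member was called in either comparison by edgeR's quasi-likelihood test with Benjamini-Hochberg adjustment (lowest adjusted p 1 for EHP-101 and 0.998 for AJA), as 0% of all genes were, and none had an unadjusted p under 0.05. Higher values at that unadjusted level were seen for 0.575% of all genes with EHP-101 and 0.622% with AJA. DESeq2 and limma called 0 members as well. Over all genes DESeq2 called 2 higher and 8 lower with EHP-101, and 4 higher and 99 lower with AJA. Limma called 0 genes in either. In 36 of the 53 tested members every AJA library was above bleomycin (22.9% of all genes). In the others at least 1 AJA library was at or below bleomycin.

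**Figure D3:**
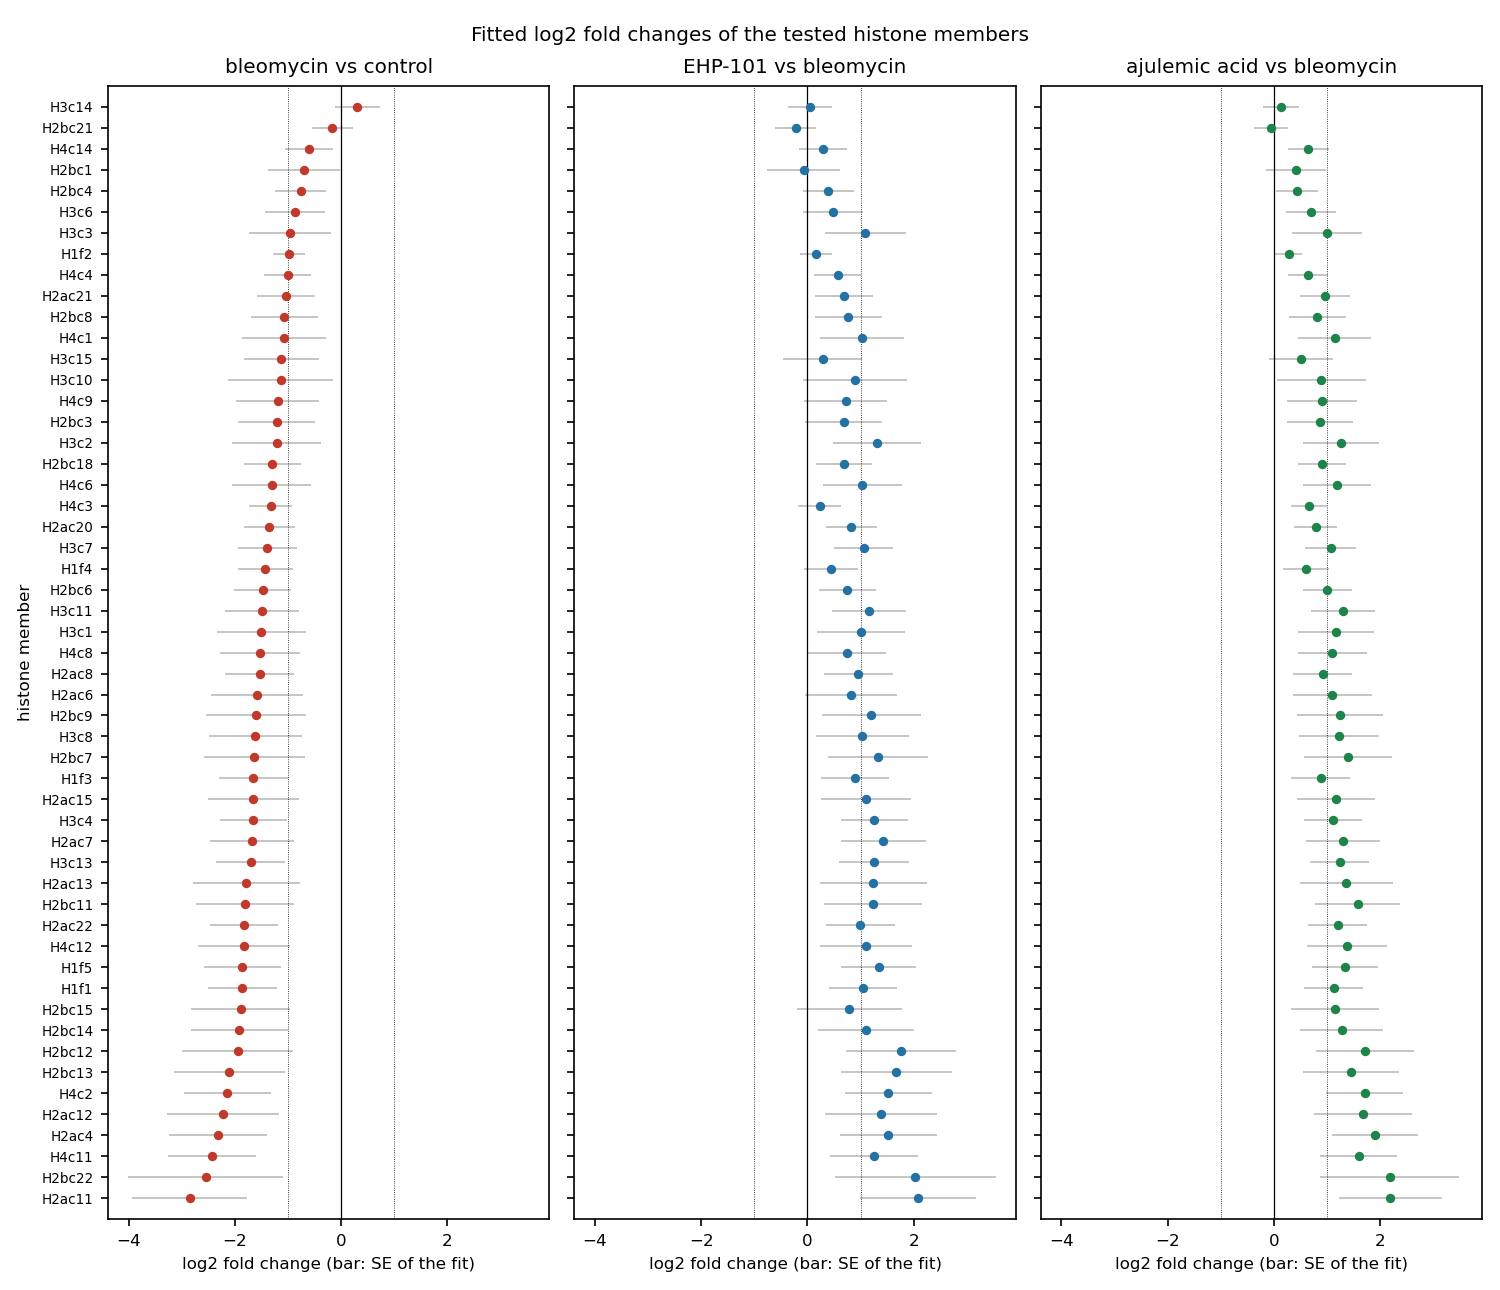
Log2 fold changes of the 53 tested histone genes in 3 comparisons, with bars of 1 SE of the edgeR fit and dotted lines at 2-fold. Most points lie near -1.52 for bleomycin against control and near 1.03 and 1.13 for the treated libraries against bleomycin, while H3c14 and H2bc21 lie near 0 in all 3.

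H2ac11, whose counts were low and uncertain, had the largest log2 fold changes with both agents, 2.08 ± 1.09 with EHP-101 and 2.20 ± 0.97 with AJA. H2ac4 was at 1.52 and 1.91 ± 0.81, and H4c2 at 1.52 and 1.71 ± 0.72. H3c4 and H3c13 had the smallest unadjusted p values with EHP-101 beside H2ac11, at log2 fold changes of 1.26 ± 0.63 and 1.25 ± 0.65. H1f5 was at 1.34 ± 0.71 with EHP-101 and 1.33 ± 0.62 with AJA.

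Other members lay closer to bleomycin. H1f2 was at 0.16 ± 0.30 with EHP-101 and 0.28 ± 0.25 with AJA, H4c4 at 0.57 and 0.64 ± 0.37, and H2bc18 at 0.69 ± 0.53 and 0.91 ± 0.45. H4c3 stayed near the bleomycin level with EHP-101, at 0.23, and was at 0.66 with AJA. H2bc21 and H2bc1 were the 2 members with a lower value with EHP-101, at -0.22 ± 0.39 and -0.07. With AJA, H2bc21 was the 1 lower member, at -0.05 ± 0.32, and it was higher, at 0.08, without replicate 3.

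By family, the median log2 fold changes with EHP-101 were 0.90 for H1, 1.10 for H2A, 0.79 for H2B, 1.05 for H3 and 0.88 for H4. With AJA they were 0.88 for H1, 1.20 for H2A, 1.15 for H2B, 1.09 for H3 and 1.13 for H4. In each of the 5 families the summed level was lowest in bleomycin and next lowest in AJA replicate 2. H3 stood at 118 CPM in control, 50.4 in bleomycin, 98.4 with EHP-101 and 109, 55.4 and 139 in AJA. H4 stood at 208, 85.7 and 135 CPM in the single libraries and at 189, 93.6 and 196 in AJA. H1 stood at 517, 200.1 and 295 CPM and at 325, 205 and 407 in AJA. In H1 no AJA library reached control, while in H3 replicate 3 exceeded it.

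Both agents were also compared with control. Of 53 tested members, 50 were lower with EHP-101 than in control, 3 of them by 2-fold or more, with a median log2 fold change of -0.53. Over all genes 49.9% were lower and 4.58% by 2-fold or more. With AJA 48 were lower, none by 2-fold, with a median of -0.39 (45.1% and 4.15% of all genes). That median was -0.14 without AJA replicate 2 and -0.74 without replicate 3. None was called, by edgeR, DESeq2 or limma. Over all genes DESeq2 called 93 higher and 27 lower with EHP-101, and 98 higher and 178 lower with AJA. Limma called 0 genes in either. By edgeR's test, 0% of all genes were called lower with EHP-101 and 0.0345% with AJA. An unadjusted p under 0.05 was reached by H4c3 and H1f2 with EHP-101 (1.71% of all genes were lower at that level) and by H1f2 with AJA (4.1%), at an adjusted p of 0.610. The members above control were H3c2, H3c3 and H3c14 with EHP-101, and these with H4c1 and H4c14 with AJA. H3c2, H3c3 and H4c1 were named after their values were seen.

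EHP-101 lay between bleomycin and control for 48 of the 53 tested members (43.0% of all genes). Every AJA library lay below control for 24 (22.2% of all genes), and AJA libraries lay on both sides of control for 28 (50.8%). Doses and times of the agents are not in the labels, so no comparison of the compounds is made. Side by side, the EHP-101 library lay within the range of the AJA libraries for all 53 tested members, where it did for 61.9% of all genes. The fitted log2 differences of AJA from EHP-101 ran from -0.22 to 0.49 with a median of 0.15. That median ran from -0.16 to 0.43 when an AJA library was left out, and it was negative without replicate 3.

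Within the AJA group the libraries differed in 1 direction for nearly every member. Replicate 2 was the lowest for 51 of the 53 tested members (39.7% of all genes) and was at less than 50% of replicate 3 for 42 (8.27%). Replicate 3 was the highest for 48, a count for which the share over all genes was not taken. H2ac4 was at 4.99 CPM in replicate 2 and 18.0 in replicate 3, and H1f5 at 21.3 and 59.1. H1f2 varied less, with a mean of 104 ± 18.8 CPM (SD, n = 3), and H3c14 was at 3.29 ± 0.437 CPM.

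Genes that act with the histone messages were taken from lists of known members. Histone mRNA processing was represented by 14 tested genes, of which 3 were higher and 11 lower in bleomycin, none by 2-fold, with a median log2 fold change of -0.17. Slbp, the stem-loop binding protein, was at 17.4 CPM in control, 12.1 in bleomycin, 17.0 with EHP-101 and 17.0, 15.2 and 22.2 in AJA. Npat, the coactivator of histone transcription at the histone locus body, was at 42.6, 40.3 and 42.2 CPM and at 41.5, 45.1 and 47.3 in AJA. Its 6 values lay between 40.3 and 47.3 CPM, with no library apart.

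Lsm11, a part of the U7 particle that cuts the histone message after the stem-loop, was at 13.3 CPM in control, 18.4 in bleomycin, 14.3 with EHP-101 and 14.9, 17.3 and 13.4 in AJA. Its partner Lsm10 was at 7.82, 9.30 and 6.35 CPM and at 7.98, 7.22 and 6.38 in AJA. Casp8ap2, another protein of the histone locus body, was at 46.1, 42.5 and 44.3 CPM and at 42.4 to 47.6 in AJA. Eri1, the exonuclease that trims the stem-loop, was at 51.7, 29.3 and 41.7 CPM and at 42.2, 32.8 and 56.9 in AJA. Of these 6 genes, Slbp and Eri1 had bleomycin and AJA replicate 2 lowest and control and AJA replicate 3 highest, the order of most histone members.

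Of 17 histone chaperone genes, 15 were lower in bleomycin, with a median log2 fold change of -0.25. Asf1b, a chaperone of H3 and H4, was at 5.85 CPM in control, 2.50 in bleomycin, 7.02 with EHP-101 and 7.43, 3.73 and 9.03 in AJA. Chaf1a, the large subunit of the assembly factor CAF-1, was at 13.7, 8.09 and 19.5 CPM and at 18.1, 11.4 and 23.4 in AJA. Nasp, which holds a store of H3 and H4, was at 49.6, 37.6 and 47.4 CPM and at 47.9, 45.5 and 58.5 in AJA. For Asf1b and Chaf1a, unlike for most histone members, EHP-101 exceeded control in value.

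Variant histones made from polyadenylated messages had a median log2 fold change of -0.54 in bleomycin, with 10 of 11 lower and 3 by 2-fold or more. H1f0, the linker variant of resting cells, was at 168 CPM in control, 98.3 in bleomycin, 119 with EHP-101 and 111, 98.2 and 192 in AJA. H2az1, which encodes H2A.Z, was at 14.4, 8.02 and 11.2 CPM and at 12.4, 9.97 and 14.5 in AJA. H3f3b, an H3.3 gene with near-identical copies and so uncertain, was at 3.88, 3.27 and 2.87 CPM and at 2.25, 2.58 and 2.14 in AJA.

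DNA replication genes were low in the same libraries as the histone genes. All 28 were lower in bleomycin, 5 of them by 2-fold or more, with a median log2 fold change of -0.70. All 28 were higher with EHP-101 and with AJA, with medians of 0.71 and 0.80. Against control the medians were 0.04 with EHP-101, with 15 higher and 13 lower, and 0.05 with AJA, with 17 higher and 11 lower, where those of the histone members were -0.53 and -0.39. None was called. Summed, they stood at 586 CPM in control, 360.1 in bleomycin, 608 with EHP-101 and 581, 466 and 759 in AJA. Pcna, the replication clamp, was at 29.5, 20.5 and 31.8 CPM and at 27.1, 24.2 and 37.4 in AJA. Mcm2, a helicase subunit, was at 19.1, 10.3 and 25 CPM and at 24.8, 14.8 and 32.1 in AJA. Rrm2, a ribonucleotide reductase subunit, was at 20.2, 11.6 and 17.5 CPM and at 18.4, 11.1 and 23.0 in AJA.

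The summed histone level was 2.05 times that of the replication genes in control, 1.31 times in bleomycin, 1.27 times with EHP-101 and 1.57, 1.08 and 1.46 times in AJA. Control was above the other 5 libraries in this ratio. Against 18 mitosis genes the ratio was 1.23 in control, 1.19 in bleomycin, 0.90 with EHP-101 and 1.30, 1.03 and 1.02 in AJA. All 18 mitosis genes were lower in bleomycin, 15 by 2-fold or more, with a median log2 fold change of -1.17. Mki67, the proliferation marker, was at 401 CPM in control, 148 in bleomycin, 343 with EHP-101 and 289, 191 and 454 in AJA. Top2a, the mitotic topoisomerase, was at 177, 75.1 and 160 CPM and at 137, 96.2 and 201 in AJA.

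Markers of the growing hair follicle differed between the same libraries over a far wider range. All 20 matched markers were lower in bleomycin by 2-fold or more, with a median log2 fold change of -3.92, and none was called. Their summed level was 14982 CPM in control, 1185 in bleomycin, 12101 with EHP-101 and 13292, 668 and 30921 in AJA. None of the 20 was at 0 in any library. Both the histone sum and the follicle sum were lowest in bleomycin and AJA replicate 2. The part of follicle content in the histone values was not tested.

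Other cell type markers also differed in value between bleomycin and control, with none called. All 6 adipocyte markers were lower, with a median log2 fold change of -1.44 and sums of 1515 CPM in control, 497 in bleomycin, 979 with EHP-101 and 683, 722 and 539 in AJA. All 6 basal keratinocyte markers were higher (median 0.65), as were all 5 suprabasal markers (0.61) and all 6 skeletal muscle markers (1.04). The basal keratinocyte sum was 4912 CPM in control, 8044 in bleomycin, 5936 with EHP-101 and 6946, 6183 and 5820.2 in AJA. It was highest in bleomycin, where the histone sum was lowest. In AJA replicate 2, next lowest in histone sum, it was below AJA replicate 1. The muscle sum was 1879 CPM in control and 4868 in bleomycin. Fibroblast markers had a median of 0.02 and leukocyte markers 0.51. The part of these cell types in the histone values was not tested.

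Other RNAs that also lack a poly(A) tail went the other way in bleomycin. Of 8 tested, 7 were higher than in control, 5 by 2-fold or more, with a median log2 fold change of 1.59, and none was called. Over all 17377 tested genes, 8598 were higher and 1346 were higher by 2-fold or more. Rmrp, the RNA of RNase MRP, was at 498 CPM in control, 2067 in bleomycin, 1935 with EHP-101 and 2273, 2044 and 2278 in AJA. Rpph1, the RNA of RNase P, was at 367, 1830 and 1787 CPM in the single libraries and at 3122, 1979 and 1904 in AJA. Rn7sk, the 7SK RNA that holds the elongation factor P-TEFb, was at 5145, 9971 and 8122 CPM and at 12109.7, 11227 and 8349 in AJA. In these 3 RNAs control was the lowest library. Rnu12, a minor spliceosome RNA of the same list named after its values were seen, was at 0.263 CPM in control, 0.385 in bleomycin, 0.915 with EHP-101 and 0.955, 0.229 and 1.75 in AJA, with AJA replicate 2 lowest.

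**Figure D4:**
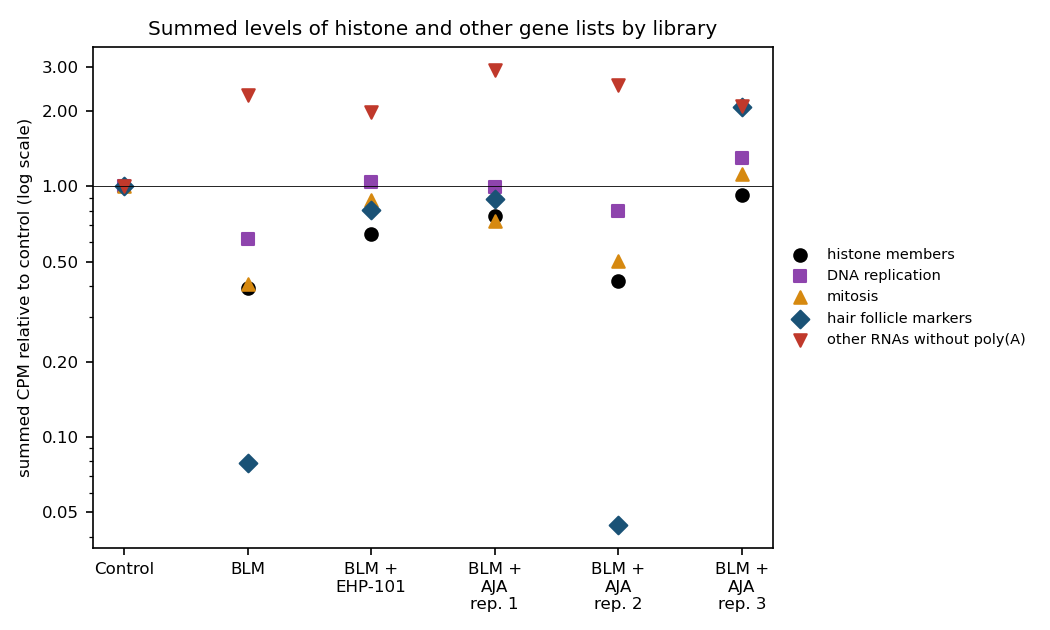
Summed CPM of 5 gene lists in each library relative to control (log scale): histone members, DNA replication, mitosis, growing hair follicle markers and other RNAs without poly(A). Histone, replication, mitosis and follicle sums are lowest in bleomycin and AJA replicate 2, and the other RNAs without poly(A) lie above control in all 5 other libraries.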

How the data were processed

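Per the labels' protocols, 300 ng of total RNA from frozen skin went into stranded libraries depleted of ribosomal RNA, read as single ends of 50 bp. The tools named in the submitters' processing notes were HISAT2 2.1.0, featureCounts 1.6.1, Trimmomatic 0.36 and DESeq2 1.20.0, on mm10. The authors deposited raw counts per gene under NCBI gene numbers. Neither the strand option nor the handling of multi-mapped reads is given in the sources used. A second deposited table held the same counts (0 differing values) and 6 columns of other samples, which were not used.

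Symbols were found for 25275 gene numbers and not for 1904. Of the symbols chosen by the naming rule, 2 annotated pseudogenes were not in the table. Members and lists were chosen with earlier results of these data known. Counts of all genes were fitted in 1 model of 6 libraries with edgeR 4.0.16 (R 4.3.3): filterByExpr with a minimum count of 10 (17377 genes), TMM factors and robust two-sided quasi-likelihood tests, with Benjamini-Hochberg adjustment over all tested genes in each of 6 comparisons at a threshold of 0.05. The spread had 2 residual degrees of freedom, from the AJA libraries, and the common biological coefficient of variation was 0.267. CPM use TMM-scaled library sizes. The scripts were tested on simulated counts. The simulated fold changes were larger than the histone medians, so that test does not address the power to call members. DESeq2 1.42.0 and limma 3.58.1 were alternatives, with other scalings and filters. Named members were the 10 highest in CPM per kb, the highest of each family and chromosome, and in each of 3 comparisons the 3 of smallest p in each direction. Stem-loops and coding windows were read from GENCODE M21 transcripts.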

Additional observations from a re-analysis of the deposited data

How the results depend on the processing

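There were 11 alternatives: DESeq2, limma, 3 other scalings, 2 other filters, no robust option, and each AJA library left out. Under each of them, in each of the 6 comparisons, 0 histone members were called. Over all genes some alternatives did call genes. DESeq2 called 128 higher and 37 lower in bleomycin against control, where edgeR called 0. Without AJA replicate 3, 139 higher and 38 lower were called there, and without replicate 2, 6 and 2. In AJA against control, 137 higher and 230 lower were called without replicate 3, and 45 and 171 without replicate 2. With no filter they were 27 and 126. Limma, and the fit without replicate 1, called 0 in both comparisons. No paired analysis was possible because the groups compared share fewer than 2 replicate numbers. The median log2 fold change of the tested members ran from -1.62 to -1.45 for bleomycin against control, from 0.99 to 1.10 for EHP-101 against bleomycin and from 0.83 to 1.46 for AJA against bleomycin. It ran from -0.56 to -0.40 for EHP-101 against control, from -0.74 to -0.14 for AJA against control and, with a change of sign without AJA replicate 3, from -0.16 to 0.43 for AJA against EHP-101. Leaving out an AJA library put the members at least 2-fold higher in AJA than in bleomycin at 12 to 41, and the cause was not tested. Summed histone CPM were 1161 in control and 818 in EHP-101 with total counts only, and 984 for EHP-101, 599 for bleomycin and 1534 for control with mitochondrial ribosomal RNA left out of the library sizes, where fewer counts form the denominator. Among log2 fold changes of named members, H2bc21 in AJA against bleomycin became 0.083 without AJA replicate 3, and H2bc1 in EHP-101 against bleomycin became 0.0054 with total counts only. The other 691 values of named members kept their direction. Depth limits the members of few counts: H2bc22 had a mean of 9.17 counts per library.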
